A study of Mus musculus with 4 samples.

Results

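H3K9 methylation machinery was followed in Trim28 knockout mouse embryonic stem cells through 34 genes that write, read or act beside this mark. Trim28 (KAP1) is a corepressor brought to DNA by KRAB zinc finger proteins. It gathers the methyltransferase Setdb1, the HP1 proteins that bind methylated H3K9, and the NuRD deacetylase complex, and in embryonic stem cells this pathway is known for silencing retrotransposons. The HUSH complex, the histone H3.3 chaperones Atrx and Daxx, and the remodellers that keep chromatin compact act on many of the same targets. The genes were chosen by name, and a gene was read from the probe sets listed with it alone, using the one with the highest mean where there were several. Of the 34 genes, 31 were measured this way, among 18820 genes in all. Mphosph8, the chromodomain subunit of HUSH, was listed only on a probe set shared with Parp4, and the methyltransferase genes Suv39h1 and Suv39h2 were not analysed here.

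The arrays compared 2 samples of KAP1 fl/fl knockout cells with 2 samples of wild-type cells, each titled a biological replicate and each run on 1 Affymetrix Mouse Gene ST array. All 4 are labelled with 4-OH-tamoxifen, the inducer of conditional deletion. The protocol gives 24 h of the drug or of ethanol vehicle and then 48 h without it, on irradiated embryonic fibroblasts as feeder cells. Neither the Cre driver nor the number of clones is stated, nor whether the wild-type cells are a separate line, so a difference between lines cannot be told apart from the loss of Trim28. Values are log2 expression as normalised by the authors, and a difference of 1 is a 2-fold change. A gene is said to rise or fall where limma gave an adjusted p under 0.05 over all 18820 genes. Precision is limited by there being 2 arrays a group. The p-values rest on the spread between these samples, which may be technical. For each gene limma draws this spread toward a value shared by all genes, with 4.70 prior against 2 residual degrees of freedom.

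Trim28 read 8.97 and 8.92 in the knockout samples, against 11.29 and 11.37 in the wild-type samples. That log2 change of -2.38 (SE 0.09, limma adjusted p = 3.39e-05) leaves 19.2% of the wild-type level and has the direction the labels require. Whether the probe set covers the deleted exons is not stated. Of 10 stem cell markers 6 fell, deepest Esrrb at -1.11 and Sox2 at -0.85, and 1 rose, Lin28a at 0.45. The summed linear level of the 10 was 12046 to 13752 in the knockout and 16274 to 16592 in the wild type. Of 21 fibroblast markers 16 rose and 0 fell, with Acta2 at 4.65, Tagln at 4.61 and Thbs1 at 4.22, and the sum was 8687 to 9687 in the knockout against 3254 to 3937 in the wild type. The wild-type arrays were apart in Acta2 (6.78 and 4.64) and Thbs1 (7.50 and 5.17), so that without wild-type replicate 1 or 2 the change was 5.73 or 3.58 for Acta2, 5.38 or 3.06 for Thbs1 and 4.78 or 4.45 for Tagln. The defining fibroblast collagens Col1a1 and Col1a2 read 6.21 to 7.75 in the knockout and 5.03 to 6.13 in the wild type, the last near the array medians of 5.46 and 5.48, where signal over background is not known. Of 9 trophoblast markers 5 rose and 1 fell (sum 4645 to 5504 in the knockout, 969 to 1027 in the wild type). Most of that knockout sum came from the keratins Krt8 (11.19 and 11.52, against 7.57 and 8.02 in the wild type) and Krt18 (10.72 and 10.92, against 7.48 and 7.44). Krt7, Cdx2 and Hand1 also rose, Tfap2c fell by 0.81, and Eomes, Elf5 and Gata3 did not pass. Of 8 primitive endoderm markers 5 rose and 0 fell (793 to 916 against 451 to 461). Pdgfra, which rose by 1.01, is counted both here and among the fibroblast markers. Of 14 proliferation markers 0 rose and 5 fell (15582 to 16427 against 18197 to 18394). With 1 sample left out at a time, 1 to 7 stem cell markers fell, with 1 without wild-type replicate 1 or 2, and proliferation markers fell only without knockout replicate 1 (3 of 14), while 13 to 15 fibroblast, 5 trophoblast and 3 to 5 primitive endoderm markers rose. The part of these cell types in the changes described next was not tested. In such bulk samples, fewer cells of a type and less RNA per cell cannot be told apart.

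Most of the machinery did not pass the threshold. Zmym2 was the one gene of the list that rose at least 2-fold, Pphln1, Chd3 and Mbd1 rose by less, and Fam208a, Daxx, Ehmt2, Hells and H3f3a fell by less. Together 9 of the 31 measured genes (29.0%) passed the threshold, 4 higher and 5 lower, where 26.9% of all tested genes passed, 14.2% higher and 12.7% lower. The share is near that of all genes and is no result about the list. The list is bright, with array medians of 8.84 to 9.03, and the 26.9% counts dim genes, which add few calls. The share among brighter genes is above 26.9%, from the counts given below with the related genes. Zmym2 is 1 of the 31 (3.23%) past a 2-fold change, against 5.89% of all genes. The groups' arrays did not overlap for 24 of the 31 genes, and for 65.2% of all tested genes. The median change was -0.11, against -0.05 over all tested genes. The 95% confidence intervals of the 22 genes that did not pass lay between -0.61 and 0.62, so each of them leaves out a 2-fold change in either direction. The array medians over tested genes were 5.66 and 5.63 in the knockout and 5.46 and 5.48 in the wild type. Over all probe sets the medians were already close, at 4.76 and 4.77 in the knockout and 4.76 and 4.75 in the wild type. Subtracting the medians over tested genes shifts all changes by -0.17, which makes the all-gene median of -0.05 more negative. Then 2 genes were higher and 12 lower, while 11% and 34% of all genes were. The falls numbered 0 of 31 without wild-type replicate 1 or 2 (5.3% and 4.78% of all genes) and 1 without knockout replicate 2 (7.93%).

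**Figure D1:**
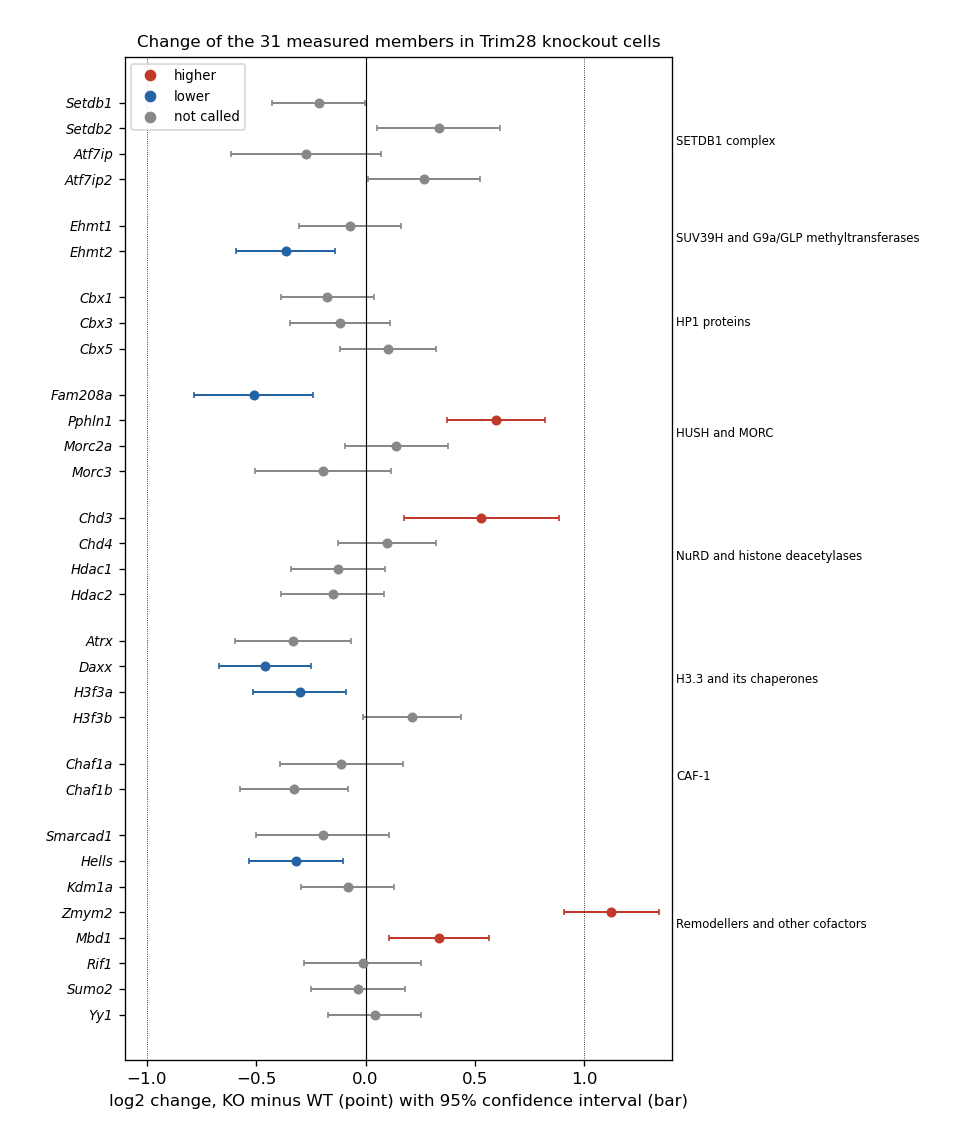
Log2 change in Trim28 knockout cells minus wild-type cells (points, horizontal axis) with its 95% confidence interval (bars) for the 31 measured genes, grouped by complex. Red points are higher and blue points lower at an adjusted p under 0.05, grey points did not pass, and dotted lines mark a 2-fold change. Zmym2 at 1.12 is the only point beyond a dotted line.

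Of the SETDB1 group, 0 of 4 genes passed the threshold. Setdb1, the methyltransferase that Trim28 recruits, read 8.82 and 8.85 in the knockout and 9.03 and 9.07 in the wild type. Both knockout arrays lay below both wild-type arrays, but the change of -0.21 (95% interval -0.43 to -0.003) had an adjusted p of 0.126 in limma. The value depended on the scaling and the surroundings. It was -0.38 (limma adjusted p = 0.0158) with array medians subtracted, which shifts every gene by -0.17 and calls 34% of all genes lower. With the neighbours' median subtracted it was -0.0038 (0.982). The 40 neighbours of Setdb1 on chromosome 3 had a median of -0.19, and of the 10 nearest 4 fell and 2 rose. The interval leaves out a loss of more than 0.43, on the deposited scale, where Trim28 changed by -2.38. Atf7ip, the cofactor that keeps SETDB1 stable in the nucleus, read 9.66 and 9.36 in the knockout and 9.93 and 9.63 in the wild type. Its groups overlap, and the change of -0.27 had an adjusted p of 0.222 in limma (-0.44 and 0.0397 with array medians subtracted).

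The relatives of these genes had values of the opposite sign, none of which passed. Atf7ip2 read 6.44 and 6.57 in the knockout and 6.15 and 6.33 in the wild type (change 0.27, limma adjusted p = 0.117), and its second probe set had a difference of 0.40. Setdb2, a SET-domain relative of Setdb1, read 5.54 and 5.28 in the knockout and 5.14 and 5.01 in the wild type (change 0.33, limma adjusted p = 0.0821, and 0.46 and 0.0433 without knockout replicate 2). Its level lay near the array medians of tested genes, 5.46 to 5.66, where signal over background is not known. The 40 tested genes around Setdb2 on chromosome 14, 20 on either side, had a median change of 0.32, higher than 99% of such medians across the genome, and close to the value of Setdb2 itself. Of the 10 nearest, Phf11a, Cab39l, Cdadc1 and Mtmr6 rose and Phf11d fell. Over 7 such pairs of related genes, an exact two-sided permutation test of the difference between their changes cannot go below p = 0.333 with 2 arrays against 2. Every pair but Hdac2 and Hdac1 stood at that lowest value (exact test adjusted over the 7 pairs, p = 0.389 each). With so few arrays the test cannot decide whether any pair differs. The changes of Setdb2 and Setdb1 differed by 0.55, and those of Atf7ip2 and Atf7ip by 0.54.

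Among the other H3K9 methyltransferases, Ehmt2 fell and Ehmt1 did not pass. The pair encodes G9a and GLP, which work as a dimer that places mono- and dimethyl marks in euchromatin. Ehmt2 read 8.16 and 8.05 in the knockout, against 8.43 and 8.51 in the wild type, a change of -0.37 (SE 0.10, limma adjusted p = 0.0307). The groups were apart. The 40 neighbours on chromosome 17 had a median change of -0.24, lower than about 99% of such medians, and 5 of the 10 nearest genes fell. With the neighbours' median subtracted from each array, the change was -0.14 (adjusted p = 0.336). The call was also lost without either wild-type sample (adjusted p = 0.0936 and 0.146) and without knockout replicate 2 (0.139). Ehmt1 read 8.06 and 8.09 in the knockout and 8.08 and 8.23 in the wild type, with a change of -0.07 and an interval of -0.30 to 0.16.

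The HP1 genes, whose proteins bind methylated H3K9 through a chromodomain, showed 0 calls of 3. Cbx1 (HP1-beta) read 9.10 and 9.16 in the knockout and 9.30 and 9.31 in the wild type, a difference of -0.18 (interval -0.39 to 0.04). With array medians subtracted Cbx1 passed as lower, at -0.35 (limma adjusted p = 0.0244). Cbx5 (HP1-alpha) read 9.36 and 9.28 in the knockout and 9.19 and 9.24 in the wild type, a difference of 0.10 (-0.12 to 0.32) that turned to -0.068 with array medians subtracted. Cbx3 (HP1-gamma) read 9.65 and 9.79 in the knockout and 9.83 and 9.84 in the wild type, a difference of -0.12 (-0.35 to 0.11). In each of the 3 genes the arrays of the groups did not overlap, as for 65.2% of all tested genes. The adjusted p was 0.202, 0.476 and 0.421 in limma. Cbx3 is listed alone on 7 probe sets, which may partly read processed copies of the gene, and their differences lay between -0.14 and -0.06. All 7 had the same sign, while the size varied.

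The HUSH complex, which spreads H3K9 trimethylation over young retrotransposons, held genes of opposite change. Pphln1, the periphilin subunit that binds nascent RNA, read 8.53 and 8.65 in the knockout, against 7.98 and 8.01 in the wild type. It rose by 0.59 (SE 0.09, limma adjusted p = 0.00457), a 1.51-fold higher level, and passed in all 11 alternatives. Of the 10 genes nearest Pphln1 on chromosome 15, 5 rose and 1 fell. Fam208a, now named Tasor, encodes the scaffold of HUSH and read 7.85 and 7.64 in the knockout, against 8.34 and 8.17 in the wild type. It fell by 0.51 (SE 0.11, limma adjusted p = 0.0176) to 70.1% of the wild-type level (change with 95% interval -0.79 to -0.24). The groups of both genes were apart, while the fall of Fam208a missed the threshold without wild-type replicate 1 (adjusted p = 0.120), without wild-type replicate 2 (0.0630) and without knockout replicate 2 (0.0756). A further probe set, listed with Ccdc66 as well, showed a difference of 0.11 and cannot be assigned to Fam208a.

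The chromodomain subunit Mphosph8 could not be read on its own. The probe set listed with Parp4 and Mphosph8 read 6.40 and 6.40 in the knockout and 5.53 and 5.63 in the wild type, a difference of 0.82 that may come from either gene. The MORC ATPases did not pass. Morc2a, which compacts chromatin at HUSH targets, read 8.73 and 8.89 in the knockout and 8.69 and 8.66 in the wild type (difference 0.14, interval -0.10 to 0.38, and -0.029 with array medians subtracted). Morc3, which acts with Daxx at retroviral elements, read 8.47 and 8.40 in the knockout and 8.80 and 8.46 in the wild type, and the groups overlapped (difference -0.20, interval -0.51 to 0.11).

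In the NuRD and deacetylase group, Chd3 passed and Chd4, Hdac1 and Hdac2 did not. Chd4, the main remodelling ATPase of NuRD in stem cells, read 10.30 and 10.33 in the knockout and 10.16 and 10.27 in the wild type, and its difference of 0.10 turned to -0.071 with array medians subtracted. Its relative Chd3 read 6.02 and 6.43 in the knockout, against 5.62 and 5.77 in the wild type. Chd3 rose by 0.53 (SE 0.15, limma adjusted p = 0.0389), with the widest spread between knockout arrays of the genes that passed. The call was lost in 6 of 11 alternatives, without either wild-type sample among them (adjusted p = 0.212 and 0.129), and a second, dimmer probe set had a difference of 0.23. Hdac1 read 10.71 and 10.69 in the knockout and 10.86 and 10.80 in the wild type (difference -0.13, interval -0.34 to 0.09). Hdac2 read 9.26 and 9.32 in the knockout and 9.51 and 9.37 in the wild type (difference -0.15, interval -0.38 to 0.08). Both deacetylase genes lay lower in each knockout array than in each wild-type array, where 65.2% of all tested genes had groups that did not overlap. They passed as lower only with array medians subtracted, at -0.30 for Hdac1 and -0.32 for Hdac2 (limma adjusted p = 0.0401 and 0.0433).

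**Figure D2:**
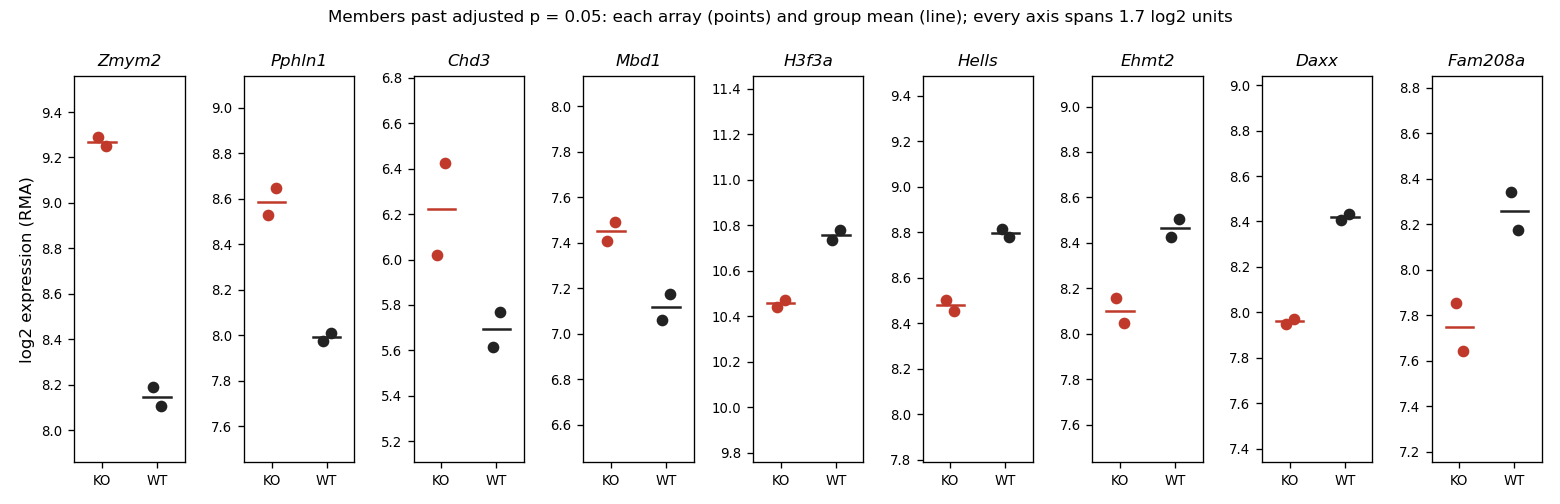
Log2 expression in each array (points) with the group mean (line) for the 9 genes that passed the threshold, knockout (KO) left and wild type (WT) right in each panel, ordered from the largest rise to the deepest fall. Every vertical axis spans the same distance, and in each panel the KO points lie entirely above or entirely below the WT points, with the widest gap in Zmym2.

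Of the genes of histone H3.3 and its heterochromatin chaperones, Daxx and H3f3a fell and Atrx and H3f3b did not pass. Daxx, which deposits H3.3 and also binds SUMO, read 7.95 and 7.97 in the knockout, against 8.41 and 8.43 in the wild type. It fell by 0.46 (SE 0.09, limma adjusted p = 0.00980), with arrays of a group within 0.03 of each other. The call was kept in 9 of 11 alternatives and missed without wild-type replicate 1 (adjusted p = 0.0576) or 2 (0.0659). Of the 10 genes nearest Daxx on chromosome 17, 4 fell and 1 rose, with a median of -0.32, and the median over 40 neighbours was -0.08. Atrx, the remodeller that works with Daxx, read 8.50 and 8.38 in the knockout and 8.88 and 8.67 in the wild type. Its change of -0.33 did not pass in limma (adjusted p = 0.0694, interval -0.60 to -0.07), though the groups did not overlap. Atrx passed as lower in 3 of 11 alternatives, with array medians subtracted (-0.50, adjusted p = 0.0120), with the neighbours' median subtracted (-0.42, 0.0333) and with the replicate block (0.0489).

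The genes H3f3a and H3f3b encode the same H3.3 protein and had changes of opposite sign. H3f3a read 10.44 and 10.47 in the knockout, against 10.74 and 10.78 in the wild type, and fell by 0.30 (SE 0.09, limma adjusted p = 0.0474). H3f3b read 11.24 and 11.28 in the knockout and 11.10 and 10.99 in the wild type, with a change of 0.21 (interval -0.01 to 0.44, limma adjusted p = 0.146, and 0.0410 with limma's trended robust prior). The changes differed by -0.51. The exact permutation p was 0.333, the smallest that 2 arrays against 2 allow, so the test cannot decide whether this pair differs. H3f3a is listed alone on 4 probe sets, with differences of -0.33 to -0.30, and a further one shared with the predicted gene Gm12657 had -0.36. One of the 4 read only 3.69 to 4.06, and near-identical gene copies mean that none of them can be assigned to a single locus with certainty. The call for H3f3a was close to the threshold and was lost without any 1 of the 4 samples (adjusted p = 0.126 to 0.168) and with the neighbours' median subtracted (change -0.09, adjusted p = 0.570).

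Hells passed and the CAF-1 genes did not, and all had lower values in the knockout. CAF-1 loads new histones behind the replication fork, and Hells (LSH) is a remodeller needed for DNA methylation at repeats. Hells read 8.50 and 8.45 in the knockout, against 8.81 and 8.78 in the wild type, and fell by 0.32 (SE 0.09, limma adjusted p = 0.0395). Chaf1b read 9.01 and 8.83 in the knockout and 9.21 and 9.29 in the wild type (change -0.33, limma adjusted p = 0.0580, and past the threshold in 2 of 11 alternatives, with array medians subtracted at -0.50 among them). Chaf1a read 8.22 and 7.98 in the knockout and 8.30 and 8.12 in the wild type, and its groups overlapped (change -0.11, limma adjusted p = 0.552). The fall of Hells was lost without any 1 of the 4 samples (adjusted p = 0.0901 to 0.153), with the replicate number as a block (0.0511) and with the neighbours' median subtracted (0.126). In the same samples 5 of 14 proliferation markers fell, with a median of -0.24; their part in these values was not tested.

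The start-site windows of Hells, Chaf1b and Chaf1a are shown because all of them hold the letters GCGGGAA, in either orientation, a core of the motif bound by E2F factors. The windows are from RefSeq on GRCm38.p6, 250 bases before to 50 after the first start site listed, on the plus strand, at chr19:38930740-38931039, chr16:93883651-93883950 and chr17:56040166-56040465. Capitals mark GCGGGAA or its reverse complement TTCCCGC and, in Chaf1b, 1 match to CCGGAAG, the ETS core. The matches do not overlap each other.

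Hells: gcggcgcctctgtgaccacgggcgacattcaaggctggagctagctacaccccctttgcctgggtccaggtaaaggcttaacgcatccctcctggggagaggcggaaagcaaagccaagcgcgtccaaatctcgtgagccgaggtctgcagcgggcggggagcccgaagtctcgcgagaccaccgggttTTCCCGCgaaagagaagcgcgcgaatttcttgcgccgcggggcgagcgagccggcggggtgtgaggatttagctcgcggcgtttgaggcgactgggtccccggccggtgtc
Chaf1b: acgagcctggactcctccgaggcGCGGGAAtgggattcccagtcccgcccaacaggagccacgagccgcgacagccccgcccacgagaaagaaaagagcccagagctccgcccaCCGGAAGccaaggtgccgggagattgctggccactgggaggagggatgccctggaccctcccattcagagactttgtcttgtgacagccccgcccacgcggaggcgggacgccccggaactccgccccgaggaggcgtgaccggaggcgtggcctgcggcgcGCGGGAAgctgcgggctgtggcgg
Chaf1a: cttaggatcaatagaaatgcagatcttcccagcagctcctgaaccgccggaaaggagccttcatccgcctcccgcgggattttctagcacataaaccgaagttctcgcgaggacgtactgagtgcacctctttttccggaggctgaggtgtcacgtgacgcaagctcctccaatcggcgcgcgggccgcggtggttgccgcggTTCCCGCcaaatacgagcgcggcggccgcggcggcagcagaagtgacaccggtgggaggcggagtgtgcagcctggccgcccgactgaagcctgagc

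Of the 31 measured genes 27 had such a window, and 4 of these (14.8%), the ones shown and that of Sumo2, held the E2F letters, against 4.66% of 27025 windows in the whole table and 6.53% of the 14749 windows of tested genes. The windows of the 27 genes had a median of 29 CpG and 66.3% GC, against 15 CpG and 57.7% GC for tested genes. A match describes the sequence only. The same search found the ETS letters CCGGAAG in 4 of the 27 windows (14.8%, against 9.12% of all and 12.6% of those of tested genes), the YY1 letters AAGATGG in 1 (against 6.48% and 6.40%) and the NRF1 letters, GCGCA followed directly by TGCGC, in 0 (against 0.977% and 1.48%), on either strand. For Daxx, the deepest fall with little spread, the window on the plus strand at chr17:33909195-33909494 holds 2 matches in the ETS orientation CTTCCGG, in capitals.

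Daxx: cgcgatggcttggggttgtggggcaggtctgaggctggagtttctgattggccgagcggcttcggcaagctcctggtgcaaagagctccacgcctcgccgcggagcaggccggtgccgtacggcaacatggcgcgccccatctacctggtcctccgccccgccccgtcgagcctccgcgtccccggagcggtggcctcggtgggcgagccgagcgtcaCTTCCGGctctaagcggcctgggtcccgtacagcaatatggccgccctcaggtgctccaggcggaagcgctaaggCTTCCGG

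Zmym2 had the largest change of the list. It encodes a zinc finger protein that binds SUMO and joins the LSD1, CoREST and HDAC1 corepressor, and it is known to help silence germline genes and young retrotransposons in mouse embryonic stem cells. Zmym2 read 9.29 and 9.25 in the knockout, against 8.19 and 8.10 in the wild type. The rise of 1.12 (SE 0.09, interval 0.90 to 1.34, limma adjusted p = 3.41e-04) is 2.18-fold and far outside the spread within either group. It passed in all 11 alternatives, with values between 0.95 and 1.16.

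On one side of Zmym2 on chromosome 14, the 4 nearest tested genes rose with it. Going outwards on the side of lower coordinates, Zmym5 rose by 1.03, Pspc1 by 1.05, Cenpj by 0.78 and Rnf17 by 0.50 (limma adjusted p = 0.00105, 6.19e-04, 0.00550 and 0.0321), and the next gene, Atp12a, had 0.02 and did not pass. Zmym5 is a relative of Zmym2, Pspc1 encodes a paraspeckle protein and Cenpj a centriole protein. On the other side, the connexin genes Gja3, Gjb2 and Gjb6 had values of 0.09, -0.23 and -0.02. Cryl1 had 0.19, and none of these passed, while Ift88, 5 genes away, rose by 0.55. The connexin genes read only 3.00 to 5.19, below the array medians of tested genes, 5.46 to 5.66. Signal over background is not known there, so their small changes cannot show where the run of rises ends. The shared probe set of Parp4 and Mphosph8, with a difference of 0.82, names genes that lie between Cenpj and Pspc1 in GRCm38.p6. Over the 20 tested genes on either side the median was only 0.08, and with the neighbours' median subtracted from each array the rise of Zmym2 was 1.01 (limma adjusted p = 3.49e-04). These nearest neighbours were chosen for display after the values were seen. The window of Zmym2, on the plus strand at chr14:56886353-56886652, is shown for the largest change of the list; it held none of the letters searched, so it is all in lower case.

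Zmym2: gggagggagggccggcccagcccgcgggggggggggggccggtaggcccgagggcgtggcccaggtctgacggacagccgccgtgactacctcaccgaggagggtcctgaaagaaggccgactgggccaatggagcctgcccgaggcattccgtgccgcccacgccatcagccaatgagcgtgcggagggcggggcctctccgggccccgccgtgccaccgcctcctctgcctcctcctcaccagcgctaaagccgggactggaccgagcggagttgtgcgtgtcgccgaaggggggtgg

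**Figure D3:**
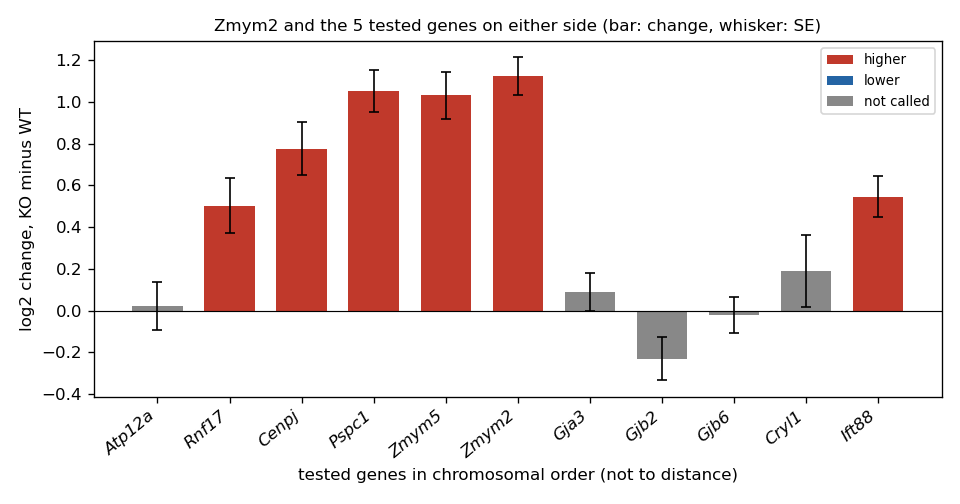
Log2 change in knockout minus wild-type cells (vertical axis) for Zmym2 and the 5 tested genes on either side in chromosomal order, with the SE as whiskers; red bars rose at an adjusted p under 0.05 and grey bars did not pass. Zmym2, Zmym5, Pspc1, Cenpj and Rnf17 form an unbroken run of rises between 0.50 and 1.12. The connexin genes beside it had changes of -0.23 to 0.09 at levels below the array medians, where signal over background is not known.

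Among the remaining cofactors only Mbd1 passed. Mbd1, a methyl-CpG binding protein that brings SETDB1 and CAF-1 to methylated DNA, read 7.41 and 7.49 in the knockout, against 7.06 and 7.17 in the wild type. It rose by 0.33 (SE 0.10, limma adjusted p = 0.0428), but the call was lost in 7 of 11 alternatives, without any 1 of the 4 samples among them (adjusted p = 0.0754 to 0.182). Kdm1a (LSD1), an H3K4 demethylase, read 9.62 and 9.57 in the knockout and 9.67 and 9.68 in the wild type (difference -0.08, interval -0.29 to 0.13). Smarcad1, a remodeller that binds Trim28 directly, read 8.84 in both knockout arrays and 9.20 and 8.86 in the wild type (difference -0.20, interval -0.50 to 0.11). The wild-type arrays differed by more than the groups did.

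Rif1, Sumo2 and Yy1 had the smallest changes of the list on the deposited scale, but not with array medians subtracted, where Morc2a (-0.029) and H3f3b (0.044) were smaller. Rif1, which controls replication timing and binds near H3K9-methylated repeats, read 9.20 and 9.13 in the knockout and 9.30 and 9.06 in the wild type (difference -0.01, interval -0.28 to 0.25, and 0.039 after quantile normalization). Sumo2, whose product is conjugated to Trim28 and creates the docking site for SETDB1, read 11.50 and 11.55 in the knockout and 11.59 and 11.54 in the wild type (difference -0.03, interval -0.25 to 0.18). Yy1, a zinc finger factor at many start sites, read 9.47 and 9.43 in the knockout and 9.39 and 9.43 in the wild type (difference 0.04, interval -0.17 to 0.25, and -0.13 with array medians subtracted). In all 3 genes the groups overlapped.

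The wider pathway was read from 75 related genes, 67 of them measured, in 8 lists. Of the 67, 10 rose and 21 fell (46.3%, against 26.9% of all tested genes), with a median change of -0.12, and 6 changed at least 2-fold. The 6 were the paralogue of the HUSH scaffold, 2 MORC genes, a SUMO protease, a chromodomain gene and a PR-domain gene. The 26.9% counts dim genes, which add few calls. With the dimmest 25% of genes left out, 2660 genes rose and 2418 fell, against 2676 and 2395 with all genes kept. The share among brighter genes is therefore above 26.9%. The lists were also chosen with earlier results of these data known, so the 46.3% is no result about them. Tasor2, listed as Fam208b and a relative of Fam208a, read 9.06 and 9.19 in the knockout, against 7.99 and 7.76 in the wild type, and rose by 1.25 (SE 0.11, limma adjusted p = 5.40e-04). It rose while Fam208a fell, and each gene's groups were apart. Morc4 read 5.83 and 6.06 in the knockout, against 4.74 and 4.63 in the wild type, and rose by 1.26 (limma adjusted p = 4.59e-04). Its wild-type values lay below the array medians of 5.46 and 5.48, where signal over background is not known. Of 4 further HUSH and MORC genes, 2 rose and 1 fell. Morc1, a germline MORC gene needed for silencing in the male germline, read 6.65 and 6.21 in the knockout, against 7.78 and 7.46 in the wild type, and fell by 1.19 (limma adjusted p = 0.00320).

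Senp6, a protease that trims SUMO2 and SUMO3 chains, read 9.29 and 9.28 in the knockout, against 8.09 and 8.12 in the wild type. Its rise of 1.18 (SE 0.09, limma adjusted p = 2.37e-04) had the smallest adjusted p of the related genes. In the SUMO pathway list 1 of 12 genes rose and 5 fell, with the SUMO ligase gene Pias3 at -0.79. Over all tested genes 14.2% rose and 12.7% fell, and no list was tested as a set. Of 7 further partners of H3K9 methyltransferases 1 rose and 2 fell. The deepest fall of the related genes was that of Cdyl2, a chromodomain gene related to the G9a partner Cdyl, at 7.36 and 6.96 in the knockout, against 8.89 and 8.82 in the wild type (change -1.69, limma adjusted p = 3.83e-04). Prdm16, a PR-domain factor linked to H3K9 monomethylation, fell by 1.02 (limma adjusted p = 0.00290). The change of Prdm16 was -0.53, under 2-fold but still past the threshold, when its 2 probe sets were averaged. The second probe set therefore changed little, and the 2-fold change rests on 1 of the 2.

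The remaining lists held no change of at least 2-fold. Their counts stand beside 14.2% of all tested genes that rose and 12.7% that fell. Of 8 LSD1 and CoREST genes 0 rose and 5 fell (median -0.48), led by Zmym3, a relative of Zmym2, at -0.97 and Rcor2 at -0.61; Zmym3 fell where Zmym2 rose. Of 10 H3K9 demethylase genes 1 rose and 2 fell, with Kdm3a at -0.81 and Phf2 at 0.52. Of 10 other NuRD genes 3 rose and 1 fell, with Mbd2 at 0.57 and Chd5 at -0.83. Of 8 further histone chaperone genes 0 rose and 2 fell, Hira at -0.31 and Cabin1 at -0.31, both subunits of the chaperone that deposits H3.3 in euchromatin. Of 8 partners of HP1 and of methylated DNA 2 rose and 3 fell, with Uhrf2 at 0.85 and Adnp2 at -0.62. The falls of Hira and Cabin1 were lost in 6 of 11 alternatives each. Those of Rcor2 and Adnp2 were lost without wild-type replicate 1 (limma adjusted p = 0.0530 and 0.0910) or 2 (0.0679 and 0.0576), and the rises of Mbd2 and Phf2 without wild-type replicate 2 (0.0809 each). Over all 67 genes, the counts were 8 higher and 32 lower with array medians subtracted, where 11% and 34% of all 18820 genes were. With 1 sample left out, 4 to 9 of the 67 were higher and 9 to 17 lower, among 1531 to 2405 higher and 899 to 1945 lower of all genes.

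**Figure D4:**
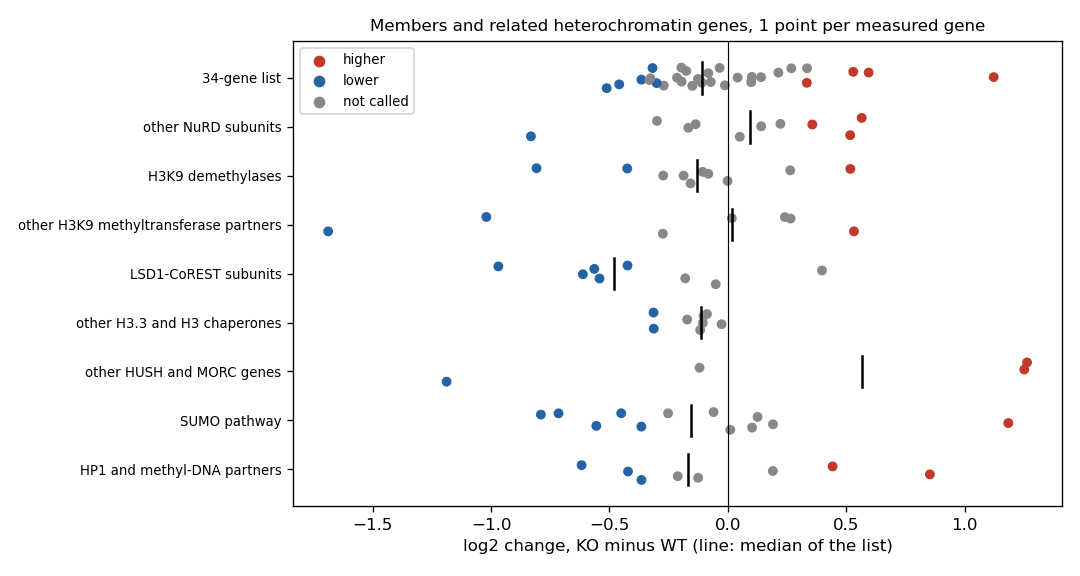
Log2 change in knockout minus wild-type cells (horizontal axis) for each measured gene of the 34-gene list and of 8 lists of related genes, with a vertical line at each list's median; colours give the call at an adjusted p under 0.05 and points are spread vertically only for legibility. The core list is gathered near its median of -0.11, the CoREST list has its median at -0.48, and the 3 rises beyond 1 in the related lists are Tasor2, Morc4 and Senp6.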

How the data were processed

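The deposited table holds log2 expression values for 35556 probe sets in 4 samples, which the authors computed by RMA in the affy package, as the submitters' processing notes say without versions. RMA models background, scales arrays to each other and compresses small differences among dim probe sets. RNA input was 250 ng per sample, per the labels' protocols. Values were used as deposited, and signal over background is unknown. Of the 23099 probe sets in the platform annotation, 21218 name 1 gene and 1881 several; 12457 probe sets are unnamed here. Probe sets naming 1 gene gave 18820 genes, with the highest-mean probe set kept for 1386 genes that had several. The genotypes were compared in limma 3.58.1 under R 4.3.3 (lmFit, then eBayes, with 2 residual and 4.70 prior degrees of freedom), two-sided, with Benjamini-Hochberg adjustment over all genes and a threshold of 0.05. Symbols and the order of genes came from GRCm38.p6; the build behind the platform annotation is not stated, and no gene positions are printed except RefSeq windows. The code was tested on simulated data. Every gene of the 34-gene list is named; related genes are named where they passed with a change of at least 2-fold or led their list among those past the threshold, and up to 3 markers per list. Col1a1, Col1a2, Lin28a, Pdgfra, the trophoblast markers and the chromosomal neighbours were named after their values were seen. The genes, lists and tests were chosen with earlier results of these data known. Alternatives changed scaling, the filter on dim genes, the choice of probe set, limma's variance prior, the replicate block and the samples; subtracting the chromosomal neighbours' median and the marker lists without each sample were added after seeing the data. Replicate numbers were not taken to pair samples.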

Additional observations from a re-analysis of the deposited data

How the results depend on the processing

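Trim28, Zmym2, Pphln1 and 11 of the 17 related genes named kept direction and call in all 11 alternatives. With array medians over the tested genes subtracted, every change shifted by -0.17. Then 6392 genes were lower in all, 2 genes of the list higher and 12 lower, and 32 related genes lower. The list's median was -0.28, a value that holds the same shift. Cbx5 (-0.068), Morc2a (-0.029), Chd4 (-0.071) and Yy1 (-0.13) changed sign without passing. After quantile normalization 2 genes of the list were higher, and Rif1 read 0.039. With the neighbours' median subtracted, 3 genes of the list were lower and the median was -0.027; Ehmt1 (0.011), Chd4 (-0.017) and Sumo2 (0.037) changed sign. With 1 sample left out at a time, and the lone sample assumed to vary like the other group, 1531 to 2405 genes were higher and 899 to 1945 lower in all, 2 to 3 and 0 to 3 of the list, and 4 to 9 and 9 to 17 of the related genes; the list's median was -0.13 to -0.03. In these fits Chaf1a lay between -0.227 and 0.0062, Rif1 between -0.134 and 0.109 and Ehmt1 between -0.148 and 0.0035, and none of them passed. Fewer samples account for part of these losses; other causes were not tested. The replicate number as a block gave 4 genes of the list higher and 4 lower, losing Hells (adjusted p = 0.0511) and H3f3a (0.0600) and gaining Atrx (0.0489). Deviations of same-numbered samples correlated at 0.15 over genes, with only 2 numbers, so they are not taken as pairs. Signal over background is unknown, which limits most the values near or below the array medians, such as those of Setdb2, Chd3, Morc4, Prdm16 and Chd5.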
